A study of Homo sapiens with 6 samples.

Results

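ADI1 encodes acireductone dioxygenase, the iron-dependent enzyme of the methionine salvage pathway that turns acireductone into the keto acid from which methionine is remade. It was followed here in HEK293T cells together with 9 other genes, namely MTAP, MRI1, APIP and ENOPH1 of the same salvage pathway, MAT2A, MAT2B and AHCY of the S-adenosylmethionine (SAM) cycle, and AMD1 and SRM of polyamine synthesis. ADI1 was picked because of its strong decrease between the conditions compared below, whereas the 9 others were listed for their place in the pathway. The list was made with earlier results of these data known, so the 9 are not a set chosen blind to them. All 10 are present among the 47470 genes of the count files.

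Cells make SAM, the donor of methyl groups, from methionine, and they use part of it to build the polyamines spermidine and spermine. Each polyamine step releases methylthioadenosine, which the salvage enzymes convert back to methionine. Methylthioadenosine is also known as an inhibitor of the arginine methyltransferase PRMT5, so the salvage pathway, the SAM cycle and protein methylation are often considered together.

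RNA was sequenced from HEK293T cells labelled WT and left untreated, and from cells of that line labelled VPA-treated in place of a genotype, which had received 1 mM valproic acid (VPA) for 1 day. VPA is an anti-epileptic drug that inhibits histone deacetylases. HEK293T is an established line derived from human embryonic kidney, and it expresses large T antigen of SV40. There were 3 libraries per condition, 6 in all, and the labels do not say whether they came from separate cultures, so p-values measure the spread between these libraries. Counts on genes ranged from 18622267 to 18828495 per library. All 8 markers chosen for the line, among them PAX2 and VIM, were counted in every library. Of 6 markers of other cell types 2, COL1A1 and ACTA2, were counted in every library, with a summed level over the list of 461 to 493 normalized counts in untreated and 1325 to 1482 in VPA-treated libraries, and their part in the results was not tested. These are bulk samples, in which fewer cells of a type and less RNA per cell cannot be told apart.

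ADI1, a minus-strand gene at 3497366 to 3519531 of chromosome 2 (GRCh38.p14), had the lowest log2 fold change of the 11065 tested genes whose mean reached 100 normalized counts, and ranked 6 among all 15298 tested genes. The values are given as a description and without a test because the gene was chosen by them. Normalized counts, which are counts scaled by TMM to a library of mean size, were 3029, 3305 and 3391 without VPA and 1022, 1033 and 1104 with it. The VPA-treated libraries were close to each other and far below the lowest untreated one, with no overlap. ADI1 averaged 3242 ± 189 without and 1053 ± 44.7 with VPA (SD, n = 3 per condition), which is -1.62 on the log2 scale (standard error 0.050), or a difference of -67.5%. The spread between libraries was small beside this, with a coefficient of variation of 5.82% in untreated and 4.25% in VPA-treated cells.

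The same ADI1 counts were also read as a ratio to another gene of the same library, in which the scaling of the libraries cancels by construction. Against ENOPH1, whose product makes the substrate of ADI1, there were 2.33, 2.40 and 2.48 counts of ADI1 per count in untreated cells and 0.805, 0.869 and 0.860 in VPA-treated cells. Against MTAP, which opens the pathway, the ratio was 2.52 ± 0.173 without and 0.867 ± 0.0469 with VPA (SD, n = 3 per condition), and these ratios, like those given below, were chosen after the values were seen and were not tested. Per length of transcript, ADI1 accounted for 41.1% to 43.6% of the sum over the 5 salvage genes in untreated libraries and for 20.6% to 22.6% in VPA-treated libraries.

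The stretch of 250 bases before the annotated start of ADI1 is shown because it is the promoter of the gene with the lowest fold change, and those of ENOPH1, MAT2A and SRM are shown for the salvage step before ADI1 and for the SAM and polyamine members with the lowest fold changes among the 9 others. They are from RefSeq on GRCh38.p14, at chr2:3519532-3519781 on the minus strand for ADI1, chr4:82430340-82430589 on the plus strand for ENOPH1, chr2:85538918-85539167 on the plus strand for MAT2A and chr1:11060019-11060268 on the minus strand for SRM. Each is written 5′ to 3′ along its gene, and capitals mark matches on either strand to the motif CACGTG (an E-box), the motif CCAAT, the GC box GGGCGG or the motif TATAAA. The searches for CCGGAAG, for TGACGTCA, for GCATGCGC and for TGATGCAA gave no match in these 4 stretches.
ADI1: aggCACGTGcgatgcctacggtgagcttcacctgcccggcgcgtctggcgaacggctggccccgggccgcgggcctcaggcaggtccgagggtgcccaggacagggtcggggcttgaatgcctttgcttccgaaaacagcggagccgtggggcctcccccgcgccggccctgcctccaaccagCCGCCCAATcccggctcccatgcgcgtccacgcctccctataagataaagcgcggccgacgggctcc
ENOPH1: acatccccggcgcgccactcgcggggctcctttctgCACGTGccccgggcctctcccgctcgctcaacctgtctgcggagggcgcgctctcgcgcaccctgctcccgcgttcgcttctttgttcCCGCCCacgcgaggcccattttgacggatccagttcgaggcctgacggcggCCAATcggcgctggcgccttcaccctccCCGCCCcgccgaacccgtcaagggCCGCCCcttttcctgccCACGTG
MAT2A: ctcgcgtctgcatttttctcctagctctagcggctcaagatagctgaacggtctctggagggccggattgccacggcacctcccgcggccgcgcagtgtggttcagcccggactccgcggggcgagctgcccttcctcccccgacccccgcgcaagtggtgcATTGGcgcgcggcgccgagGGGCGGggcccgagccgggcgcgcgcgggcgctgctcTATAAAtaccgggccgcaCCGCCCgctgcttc
SRM: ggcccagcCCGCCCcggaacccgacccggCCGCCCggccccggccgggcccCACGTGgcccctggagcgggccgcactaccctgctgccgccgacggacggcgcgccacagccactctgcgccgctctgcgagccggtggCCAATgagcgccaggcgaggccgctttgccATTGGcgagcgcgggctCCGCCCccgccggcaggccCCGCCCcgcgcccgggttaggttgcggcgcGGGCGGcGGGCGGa

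All 10 members matched the RefSeq promoter table, with 15 windows since some genes have several starts, and the motifs were searched over 300 bases, from 250 before to 50 after the start. A member was counted for a motif if any of its windows matched, whereas the shares of all windows are per single window. The counts of members and these shares are therefore not like for like. In ADI1 a CACGTG began at position -247 from the start and a CCAAT at -63, and the latter overlapped a GC box on the opposite strand. CACGTG was found in 4 of the 10 members, ADI1, MRI1, ENOPH1 and SRM, and in 7.26% of the 35116 windows of the table. ENOPH1 held 2 copies, which began at -214 and -6. GGGCGG was found in all 10 members and in 45.0% of all windows, and CCAAT in 7 members and in 34.6% of all windows. TATAAA was found in MTAP and in MAT2A, where it began at -32, and in 11.5% of all windows. CCGGAAG was found in MAT2B and AHCY, and TGACGTCA, GCATGCGC and TGATGCAA in none of the member windows, against 10.3%, 1.85%, 3.05% and 0.866% of all windows. GC content was 71.3% in ADI1, 71.3% in ENOPH1, 71.0% in MAT2A and 82.0% in SRM, against a median of 58.7%, so that these 4 windows were richer in GC than most. A match describes the letters of the window only, and binding was not measured in these samples.

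The 9 other members were compared between VPA-treated and untreated cells by edgeR's quasi-likelihood test with Benjamini-Hochberg adjustment over all tested genes. None was called higher and 7 were called lower at an adjusted p under 0.05, where 32.9% of all tested genes were called higher and 30.0% lower. The 7 were SRM, MAT2A, MAT2B, APIP, AHCY, MRI1 and ENOPH1. None of the 9 reached the study's threshold of a log2 fold change of 1 in size as well, which 12.0% of all tested genes passed upwards and 0.503% downwards. The median log2 fold change of the 9 was -0.24, against 0.0058 over all tested genes. In 8 of the 9 every VPA-treated library was below every untreated one, where 31.0% of all tested genes had this order and 34.8% the opposite one.

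**Figure D1:**
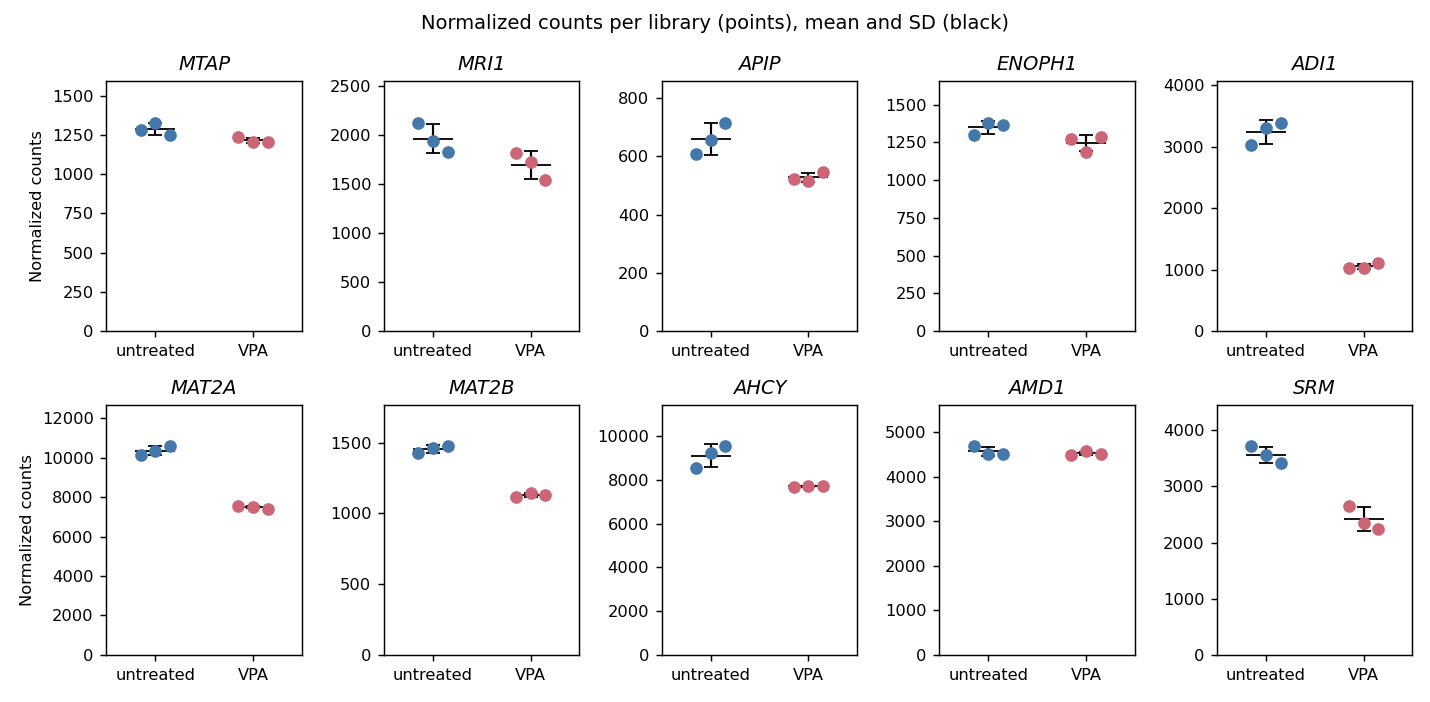
Normalized counts (vertical axes, from 0) of the 10 genes in the 3 untreated (blue) and 3 VPA-treated (red) libraries, with the mean as a black line and the SD as bars. ADI1 lies between 3029 and 3391 in untreated and between 1022 and 1104 in VPA-treated libraries, and in AMD1 alone the libraries of the conditions overlap.

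The salvage genes that act before ADI1 had small differences. MTAP, the phosphorylase that splits methylthioadenosine into adenine and a sugar phosphate, had 1279, 1327 and 1251 normalized counts in untreated and 1235, 1206 and 1202 in VPA-treated libraries. The conditions did not overlap, yet the log2 fold change of -0.082 had a standard error of 0.047 and did not pass the test (adjusted p = 0.130, edgeR), with a 95% interval from -0.18 to 0.015.

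MRI1 isomerizes the sugar phosphate that MTAP releases. It had 2123, 1938 and 1823 normalized counts in untreated and 1820, 1728 and 1538 in VPA-treated libraries. The highest VPA-treated and the lowest untreated library almost met. MRI1 fell by 0.21 on the log2 scale (standard error 0.062, adjusted p = 0.0067, edgeR), a difference of -13.6%. With library totals the value was -0.080 and the call was lost (adjusted p = 0.320), and over 16 alternatives the adjusted p ran from 6.9e-07 to 0.431.

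APIP, the dehydratase of the pathway, also binds the apoptosis protein APAF1. It had the lowest log2 fold change of the 4 salvage genes tested. There were 608, 657 and 716 normalized counts in untreated and 524, 514 and 546 in VPA-treated libraries, all of the latter below the former. APIP fell by 0.32 on the log2 scale (standard error 0.064, adjusted p = 1.7e-04, edgeR). PDHX on the opposite strand shares 460 bases with APIP.

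ENOPH1, the enolase-phosphatase that makes acireductone, was at the edge of the test. It had 1300, 1380 and 1366 normalized counts in untreated and 1270, 1188 and 1283 in VPA-treated libraries, and the conditions were separated by less than the SD within either. ENOPH1 fell by 0.11 on the log2 scale (standard error 0.048, adjusted p = 0.047, edgeR). DESeq2 gave an adjusted p of 0.058. The call was also lost with upper quartile scaling (0.416), library totals (0.754), a filter of 10 counts per library (0.110), a filter on the mean of 50 counts (0.156), and without untreated replicate 2 (0.124), untreated replicate 3 (0.0913) or VPA-treated replicate 2 (0.225). Direction and call were kept in 7 of 16 alternatives, over which the adjusted p ran from 0.0085 to 0.754. The lowest of these belongs to an alternative in which the sign was positive.

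**Figure D2:**
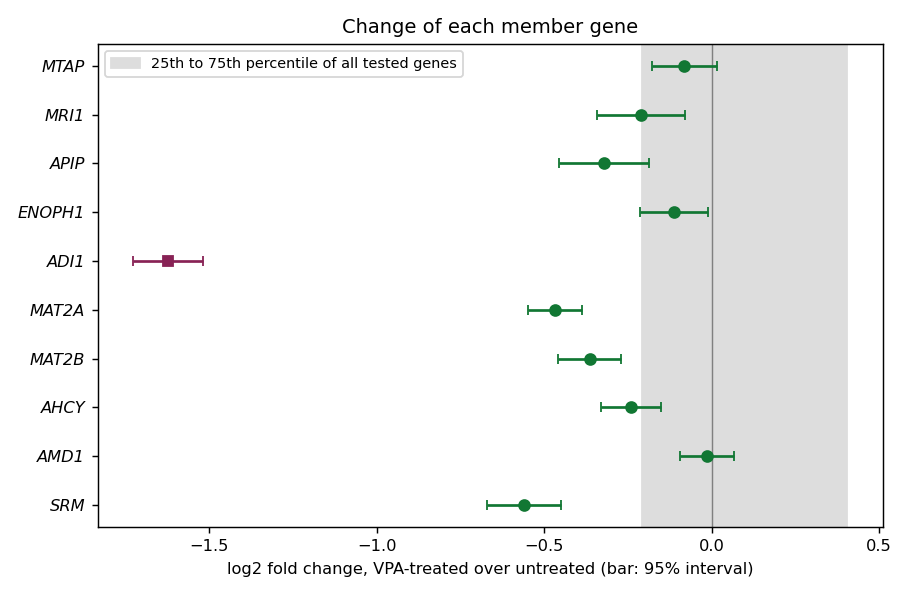
Log2 fold change of VPA-treated over untreated cells (horizontal axis) for the 10 genes, with 95% intervals as bars and the 25th to 75th percentile of all tested genes, -0.21 to 0.40, as a grey band. ADI1 (square, chosen by this value) is at -1.62 and the 9 others lie between -0.56 and -0.014.

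Both subunits of the enzyme that makes SAM fell. MAT2A, the catalytic subunit, had 10148, 10357 and 10567 normalized counts in untreated and 7532, 7517 and 7418 in VPA-treated libraries. Every VPA-treated library was far below the untreated ones, with an SD of 209 in untreated and 62.0 in VPA-treated cells. MAT2A fell by 0.47 on the log2 scale (standard error 0.039, adjusted p = 9.8e-10, edgeR), a difference of -27.7%. GGCX on the opposite strand shares 562 bases with MAT2A.

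MAT2B, the regulatory subunit, had 1426, 1464 and 1473 normalized counts in untreated and 1117, 1143 and 1129 in VPA-treated libraries, a narrow spread (SD 25.2 and 13.1) beside the gap. It fell by 0.36 on the log2 scale (standard error 0.045, adjusted p = 4.8e-07, edgeR). Each library held between 7.07 and 7.17 counts of MAT2A per count of MAT2B when untreated and between 6.57 and 6.74 after VPA, with no overlap.

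AHCY hydrolyses S-adenosylhomocysteine, the product that methyl transfer leaves behind. It had 8540, 9254 and 9533 normalized counts in untreated and 7696, 7711 and 7731 in VPA-treated libraries, where the VPA-treated libraries were close to each other (SD 17.7) and the untreated ones were spread (SD 512). AHCY fell by 0.24 on the log2 scale (standard error 0.043, adjusted p = 5.2e-05, edgeR). Relative to MAT2A, AHCY was higher in VPA-treated cells, with 1.02 to 1.04 counts per count of MAT2A against 0.842 to 0.902. ASIP on the opposite strand shares 37364 bases with AHCY and had 1 count over all libraries.

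The polyamine members differed from each other. AMD1, which decarboxylates SAM and so commits it to polyamines, had 4677, 4514 and 4513 normalized counts in untreated and 4489, 4565 and 4514 in VPA-treated libraries, which overlapped. The log2 fold change of -0.014 had a 95% interval from -0.094 to 0.065 (adjusted p = 0.763, edgeR), that is from -6.31% to 4.64%. CDK19 on the opposite strand shares 1239 bases with AMD1.

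SRM, spermidine synthase, which uses the product of AMD1, had the largest decrease of the 9 tested members. It had 3714, 3562 and 3419 normalized counts in untreated and 2658, 2355 and 2242 in VPA-treated libraries. The libraries of the conditions did not overlap. SRM fell by 0.56 on the log2 scale (standard error 0.053, adjusted p = 2.0e-08, edgeR), a difference of -32.2%. The counts of SRM per count of AMD1 were 0.794, 0.789 and 0.758 in untreated and 0.592, 0.516 and 0.497 in VPA-treated libraries.

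Levels between genes were compared per length, as TMM-scaled CPM per kb of the MANE Select transcript (GENCODE 44). In untreated cells the order was AHCY (226 ± 12.7), MAT2A (196 ± 3.96), SRM (151 ± 6.23), ADI1 (79.2 ± 4.61), AMD1 (71.1 ± 1.48), MAT2B (37.6 ± 0.650), ENOPH1 (34.5 ± 1.08), MRI1 (32.9 ± 2.54), APIP (28.2 ± 2.32) and MTAP (11.4 ± 0.340; SD, n = 3 per condition). The libraries overlapped between ENOPH1 and MRI1 and between MRI1 and APIP, and not between the other neighbours in that order. After VPA, ADI1 was at 25.7 ± 1.09, below MRI1 (28.4 ± 2.41) and above APIP (22.6 ± 0.686), with the libraries of ADI1 and MRI1 overlapping. ADI1 was thus the highest of the 5 salvage genes per length in untreated cells, and the level nearest to it among the salvage genes after VPA was that of MRI1. Copies of a gene elsewhere in the genome can lower its counts, since reads with several places were set aside. RefSeq holds 22 pseudogenes named after the members, 3 of them after ADI1 and 8 after AHCY, and none is listed in the count files. Reads without a unique place made up 2.81% to 2.92% of the reads of a library.

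The scaling of the libraries decided the sign for several members with small changes. TMM factors were 0.950 to 0.965 in untreated and 1.05 in VPA-treated libraries, and the median over all tested genes was 0.0058 (log2) with TMM, 0.14 with library totals and 0.28 when the ribosomal protein genes were taken as the reference. SRM and MAT2A stayed below 0 and past the test under all 5 scalings, at -0.43 and -0.34 with library totals and at -0.29 and -0.20 with ribosomal protein scaling. MAT2B and APIP stayed below 0 but lost the call with ribosomal protein scaling (-0.093 and -0.051, adjusted p = 0.078 and 0.506, edgeR). With library totals MTAP, ENOPH1 and AMD1 were above 0, and with ribosomal protein scaling MRI1 and AHCY also were. ADI1 was at -1.49 and -1.35 under these settings. A change of scaling moves all genes and their median alike, and with TMM each of the 10 members was below that median, AMD1 by the least.

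**Figure D3:**
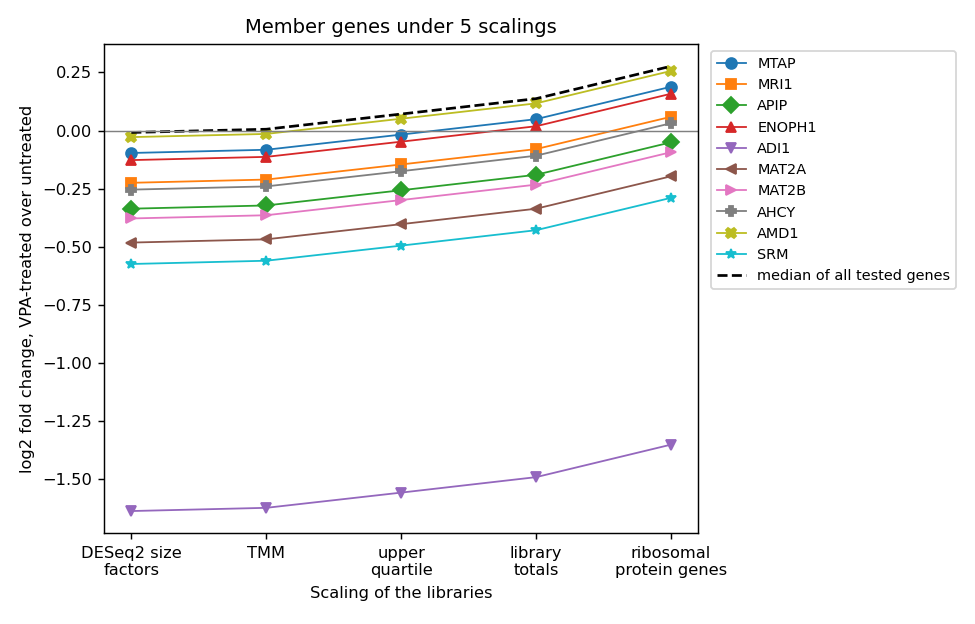
Log2 fold change of the 10 genes (vertical axis) under 5 ways of scaling the libraries (horizontal axis), with the median of all tested genes as a dashed line. The lines run in parallel, and ADI1 goes from -1.64 with DESeq2 size factors to -1.35 with ribosomal protein scaling.

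Around the members, 86 genes of 7 pathway lists were examined, the 9 other members included and ADI1 not counted, of which 79 were tested. Of these 18 were called higher and 40 lower in VPA-treated cells, 22.8% and 50.6%, against the 32.9% and 30.0% of all tested genes. The median log2 fold change was -0.11. Beyond the study's fold threshold there was 1 gene in each direction, MAT1A and OAZ3, both with few counts.

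In polyamine metabolism, 18 of 20 genes were tested, 4 were called higher and 9 lower (22.2% and 50%, against 32.9% and 30.0% of all tested genes). ODC1, ornithine decarboxylase, which makes putrescine and is the rate-limiting enzyme of the branch, averaged 9556 ± 677 without and 6336 ± 134 with VPA (SD, n = 3 per condition) and fell by 0.59 on the log2 scale (standard error 0.047, adjusted p = 4.2e-10, edgeR). There were 1.88, 2.22 and 2.19 counts of ODC1 per count of AMD1 in untreated and 1.38, 1.41 and 1.41 in VPA-treated libraries. OAZ1, the antizyme that sends ornithine decarboxylase to the proteasome, fell as well (log2 fold change -0.28, adjusted p = 3.6e-06, edgeR), and so did EIF5A (-0.39), the translation factor that carries the spermidine-derived residue hypusine, and DOHH (-0.54), which completes that residue. DHPS, the enzyme that begins it, had a log2 fold change of 0.074 and was not called. The genes that rose were AZIN2 (0.57), an antizyme inhibitor, PAOX (0.51), which oxidizes acetylated polyamines, SLC18B1 (0.26), a vesicular polyamine transporter, and ATP13A2 (0.24), a lysosomal polyamine exporter. Its relative ATP13A3 fell (-0.33, adjusted p = 1.4e-06, edgeR). AZIN1, the more abundant antizyme inhibitor at 2711 ± 206 normalized counts in untreated cells against 126 ± 6.28 for AZIN2 (SD, n = 3 per condition), fell as well (-0.15, adjusted p = 0.015, edgeR), although its libraries overlapped. SMS and SAT1, for spermine synthase and the main polyamine acetyltransferase, lie on chromosome X and are listed at 0 in all libraries. They are the only 2 genes of the lists on that chromosome, and the reason for the zeros was not tested. The zeros are not read as absence of expression, and the step from spermidine to spermine could not be followed. OAZ3 had 34, 41 and 27 counts in untreated and 20, 13 and 16 in VPA-treated libraries, a log2 fold change of -1.17 (adjusted p = 2.7e-04, edgeR). On the opposite strand TDRKH shares 4845 bases with OAZ3 and MRPL9 shares 528. These 2 genes had 4748 and 11325 counts over all libraries, and whether their reads were counted on OAZ3 was not tested.

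In the SAM cycle, 12 of 15 genes were tested, 3 were called higher and 7 lower (25% and 58.3%, against 32.9% and 30.0% of all tested genes). MAT1A, the liver form of the catalytic subunit, had 6, 5 and 2 counts in untreated and 26, 21 and 27 in VPA-treated libraries. It rose by 2.36 on the log2 scale (standard error 0.36, adjusted p = 6.2e-06, edgeR), but per length it stayed far below MAT2A, at 0.373 against 142 in VPA-treated cells. METTL16, the methyltransferase that controls splicing of MAT2A RNA, fell (log2 fold change -0.26, adjusted p = 6.7e-05, edgeR), as did MTRR (-0.24) and MTR (-0.10), which regenerate methionine from homocysteine with vitamin B12, and SLC25A26 (-0.19), which carries SAM into mitochondria. AHCYL2 rose (0.23). ADK, the kinase that removes adenosine, passed the test of edgeR (0.17, adjusted p = 0.019) but not that of DESeq2 (adjusted p = 0.128), and its libraries overlapped between the conditions. AHCYL1 was among those not called, and BHMT, BHMT2 and GNMT had too few or no counts.

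At the ends of the salvage pathway, APRT, which recycles the adenine that MTAP releases, fell (log2 fold change -0.23, adjusted p = 0.0017, edgeR), although its libraries overlapped. Of the aminotransferases that can perform the last step, GOT1 (0.21) and KYAT3 (0.23) rose, GOT2, KYAT1 and IL4I1 were not called, and TAT had too few counts to be tested. Over the salvage list without ADI1, 2 of 10 tested genes were called higher and 4 lower, shares of 20% and 40% that lie near the 32.9% and 30.0% of all tested genes.

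Among SAM-using methyltransferases and the partners of PRMT5, which do not themselves use SAM, 16 of 17 genes were tested, 1 was called higher and 10 lower (6.25% and 62.5%, against 32.9% and 30.0% of all tested genes), and WDR77, COPRS, RIOK1 and CLNS1A supplied 4 of the 10. PRMT5, the arginine methyltransferase that methylthioadenosine inhibits, had 7038, 7312 and 7605 normalized counts in untreated and 5595, 5752 and 5614 in VPA-treated libraries, with no overlap. It fell by 0.37 on the log2 scale (standard error 0.040, adjusted p = 6.4e-08, edgeR). Its partners WDR77 (-0.34), COPRS (-0.34), RIOK1 (-0.25) and CLNS1A (-0.15) fell too, although the libraries of CLNS1A overlapped between the conditions. PRMT1, the main enzyme of asymmetric arginine dimethylation, had the lowest value of the list at -0.56 (adjusted p = 9.2e-11, edgeR), and GAMT, which uses SAM to make creatine, was the gene called higher (0.42). CARM1, PRMT9, METTL3 and METTL14 were among those not called, although DESeq2 called CARM1 lower (adjusted p = 0.042).

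In the transsulfuration list, which leads from homocysteine to cysteine, glutathione and taurine, 3 of 7 tested genes were called higher and 2 lower, and these 42.9% and 28.6% are near the 32.9% and 30.0% of all tested genes. CTH (0.26), CDO1 (0.45) and CSAD (0.27, adjusted p = 0.069 with DESeq2, which ended the call) rose, and GCLM (-0.51) and GSS (-0.25), both of glutathione synthesis, fell. The libraries of CTH overlapped between the conditions. Of 3 genes in a list of binding partners, APAF1, partner of APIP, rose (0.18, adjusted p = 0.0041, edgeR, but 0.053 with DESeq2). CASP9, which was listed beside APAF1 and not as a partner of a member, fell (-0.31, adjusted p = 0.0049, edgeR). MMP14, whose cytoplasmic tail ADI1 binds, had 33.4 ± 4.66 and 45.1 ± 7.89 normalized counts (SD, n = 3 per condition) and was not called (log2 fold change 0.43, adjusted p = 0.056, edgeR).

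**Figure D4:**
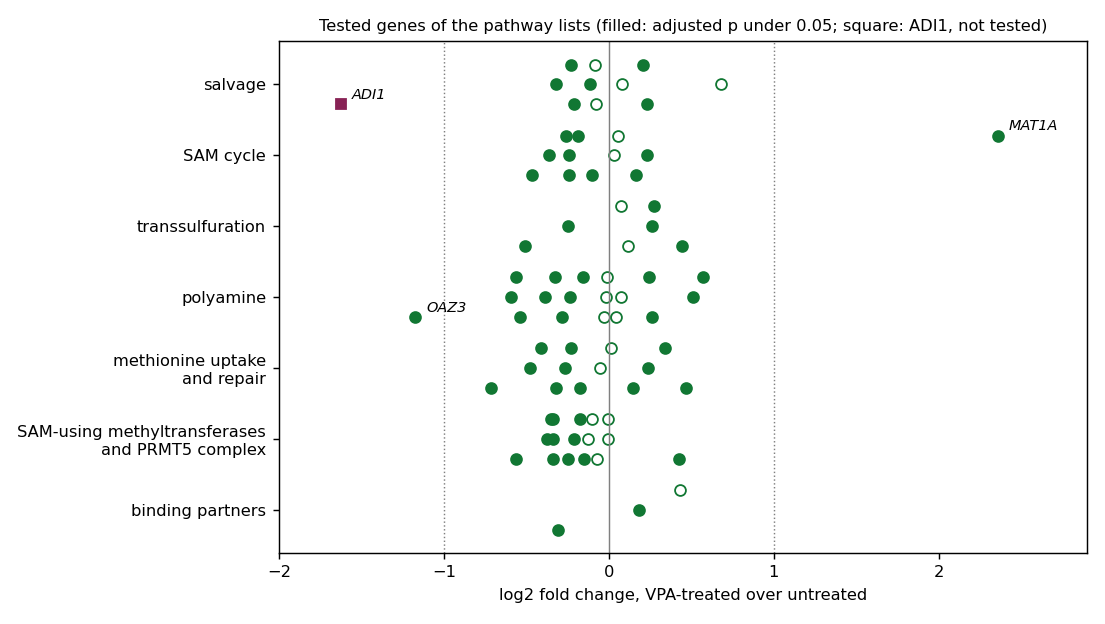
Log2 fold change of VPA-treated over untreated cells (horizontal axis) for each tested gene of the 7 lists (rows), filled where the adjusted p was under 0.05, with ADI1 as an untested square. Dotted lines mark the study's fold threshold, which MAT1A (2.36) and OAZ3 (-1.17) passed.

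The genes next to ADI1 on chromosome 2 were examined as well. Since ADI1 was chosen for its strong decrease, smaller decreases in the genes around it follow largely from that choice. RefSeq has 15 other genes within 250 kb on either side, of which 9 were tested, 6 were called lower, none higher and none past the study's fold threshold, where 30.0% of all tested genes were called lower, 32.9% higher and 0.503% lower past that threshold. TRAPPC12, a subunit of a vesicle tethering complex that lies 17801 bases away, had 906 ± 9.07 normalized counts without and 739 ± 69.0 with VPA (SD, n = 3 per condition) and fell by 0.29 on the log2 scale (adjusted p = 2.4e-04, edgeR). RNASEH1, which removes RNA from RNA-DNA hybrids and lies 12282 bases away on the other side, fell by 0.20 on the log2 scale (adjusted p = 0.0014, edgeR). RPS7, a ribosomal protein gene, fell by 0.39 and EIPR1 by 0.16. The largest decrease near ADI1 was in the uncharacterized transcript LOC124907726, at 141 ± 4.92 normalized counts without and 79.0 ± 5.03 with VPA, -0.84 on the log2 scale (adjusted p = 1.5e-06, edgeR). LOC124907725, whose nearest edge lies 15 bases from that of ADI1, had 12.2 ± 4.03 and 10.6 ± 0.993 normalized counts (SD, n = 3 per condition) and was not called (log2 fold change -0.20, 95% interval -0.90 to 0.50).

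**Figure D5:**
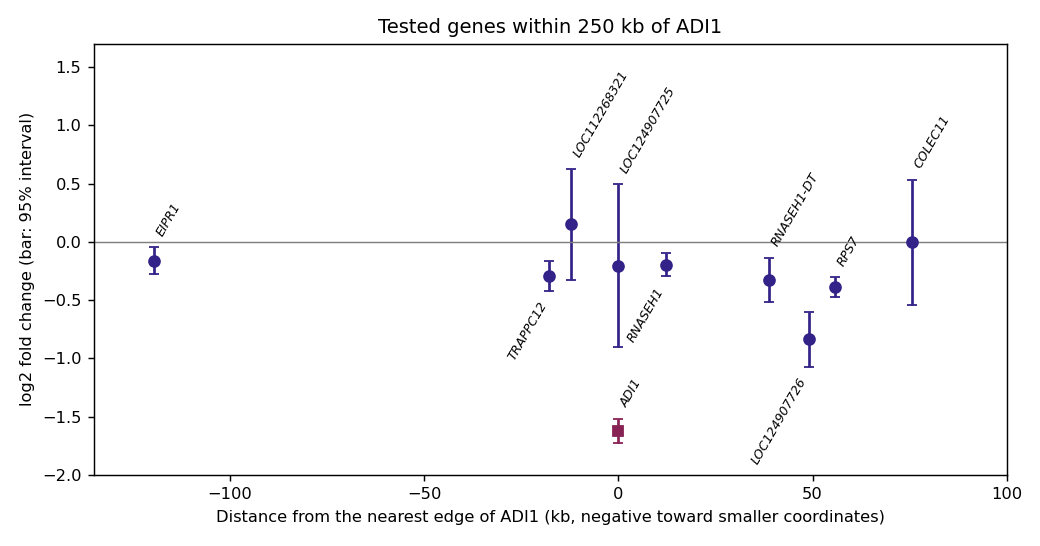
Log2 fold change with its 95% interval (vertical axis) of the tested genes within 250 kb of ADI1 against their distance from its nearest edge in kb (horizontal axis). ADI1 (square, chosen by this value) is at -1.62, and the next lowest, LOC124907726, at -0.84.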

How the data were processed

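RNA-seq was performed on 3 untreated and 3 VPA-treated HEK293T libraries. Per the paper's methods, SOAPnuke removed poor reads and STAR placed the rest on hg38 (version 2.7.10b in the submitters' processing notes). The authors deposited raw counts per gene from htseq-count (HTSeq 2.0.1 in those notes, another version in the paper). The annotation and the strand setting are not given in the sources used here, so reads of genes that overlap on opposite strands may not be separated. The 5 summary lines name no gene and were left out, and the line for reads on no gene held 6.80% to 7.69% of the reads of a library.

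Differences in the counts were fitted in R 4.3.3 with edgeR 4.0.16 (TMM, filterByExpr with a count minimum of 10, robust quasi-likelihood fit, condition as the term, prior count 0.125, Benjamini-Hochberg adjustment over 15298 genes), with DESeq2 1.42.0 as an alternative. The fits were tested on simulated data in which a small set of genes was changed, equally many up and down. That test does not check the scaling of these libraries, in which many genes differed. Standard errors are the log2 fold change over the root of F. The members, the lists and the tests were chosen with earlier results of these data known. Genes were named if they were members, belonged to the pathway lists, lay within 250 kb of ADI1 or were among the 5 most similar to it. Within a list, genes past the study's thresholds and those with the largest changes were named with values, others of the lists beside them. The ratios were chosen after seeing the data. Coordinates and promoters are from RefSeq on GRCh38.p14, and all 10 members matched by symbol.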

Additional observations from a re-analysis of the deposited data

How the results depend on the processing

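Of the 9 tested members, 0 called higher became 1 with library totals and 3 under ribosomal protein scaling, and the 7 called lower became 5 and 2 under these scalings and 0 with the fold threshold added. Of the pathway genes the 18 called higher became 28, 41 and 1 when scaled by totals, when scaled by ribosomal protein genes and with the fold threshold, and the 40 called lower became 26, 12 and 1. Over all 15298 tested genes, calls of higher went from 5037 to 6713 and 9250 and calls of lower from 4591 to 2372 and 854 under these scalings. With DESeq2 the 18 became 12, as ADK, CSAD, SLC43A1, MSRB1, MSRB2 and APAF1 lost the call. It called 40 lower as well, but ENOPH1 lost the call and CARM1 gained it (adjusted p = 0.058 and 0.042, DESeq2). The ADI1 log2 fold change was -1.49 and -1.35 under those same scalings, and -1.68 to -1.60 with a library left out. With library totals the direction was reversed for MTAP (0.049), ENOPH1 (0.019) and AMD1 (0.12), and with ribosomal protein scaling for MTAP (0.19), MRI1 (0.059), ENOPH1 (0.16), AHCY (0.032) and AMD1 (0.26). AMD1 was also reversed with upper quartile (0.051), at least 10 counts in every library (0.0081) and a mean of at least 50 counts (0.020), for which the cause was not tested. Of 144 comparisons over the 9 members 123 kept direction and call, 10 were weaker and 11 reversed. Leaving out a library gave 6 to 7 members called lower, and 37 to 41 pathway genes called lower and 15 to 18 higher, and in no such fit a member called higher (0 to 0).

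With the replicate number as a block (replicate block), 7 members and 43 pathway genes were called lower and 19 higher, so no member count moved. The standard error of every member gene was smaller with the block, going from 0.062 to 0.035 for MRI1 and from 0.053 to 0.032 for SRM. Over all tested genes 5357 were called higher and 5100 lower with the block, against 5037 and 4591 without it. Deviations of same-numbered libraries correlated with r of 0.14, 0.021 and 0.080, not every library correlated best with its own number, and the labels do not say that a number marks a shared culture, so the numbers were not taken to pair the libraries. Genes with few counts, such as MAT1A and OAZ3, have wide errors at this depth.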

Other observations

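Uptake and repair of methionine were examined as a further list, in which all 13 genes were tested, 4 were called higher and 7 lower by edgeR's quasi-likelihood test (30.8% and 53.8%, against 32.9% and 30.0% of all tested genes). SLC7A5 and SLC3A2, which together form the main importer of large neutral amino acids, fell by 0.23 and 0.32 on the log2 scale (adjusted p = 1.6e-04 and 4.6e-07), and SLC1A5, a glutamine transporter, fell by 0.41 (adjusted p = 1.3e-08). SLC43A2 fell by 0.48 and SLC38A2 by 0.18, whereas SLC43A1 rose by 0.24 and SLC38A1, at 0.014, was not called. MARS1, the cytosolic methionyl-tRNA synthetase, fell by 0.26, and its mitochondrial counterpart MARS2 was not called. The methionine sulfoxide reductases differed in direction, with MSRB1 (0.14), MSRB2 (0.34) and MSRB3 (0.47) higher and MSRA lower (-0.71, from 60.9 ± 5.12 to 37.1 ± 5.76 normalized counts, SD, n = 3 per condition). DESeq2 did not call SLC43A1 (adjusted p = 0.089), MSRB1 (0.124) or MSRB2 (0.055).

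The 5 genes whose log2 normalized counts followed ADI1 most closely over the 6 libraries, among 11064 tested genes whose mean reached 100 normalized counts, were DONSON, DCAF8, POLDIP3, LANCL2 and MSL1, with Pearson r of 0.999 to 1.00. These points share the split between the conditions, and the correlation is a description with no p. Their log2 fold changes were -0.46, -0.54, -0.35, -0.88 and -0.45. ADI1 was chosen for its decrease and had the lowest value of this pool, so none of them could have fallen further. LANCL2 had 797, 846 and 885 normalized counts in untreated and 455, 455 and 467 in VPA-treated libraries.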
